A study of Mus musculus with 10 samples.

Results

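The genes described here encode the proteins of the cytosolic ribosome. They were chosen by symbol: Rpl or Rps followed by digits and an optional letter or x, together with Rplp0, Rplp1, Rplp2 and Rpsa, leaving out the Rps6k kinase genes, symbols ending in l and pseudogenes. On the arrays used, 42 of 18193 genes with a probe set of a single symbol met the rule, 22 of the large (60S) and 20 of the small (40S) subunit. RefSeq lists 76 protein-coding mouse genes that match the rule, and the other 34, among them Rplp1, Rpl5, Rpl10 and Rps27a, had no probe set with a single symbol and were not analysed here. The rule itself used names and mean signal, not a comparison between groups, but it was set with earlier results of these data known.

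Each ribosome holds close to a single copy of each of these proteins, so their genes are transcribed at high and similar rates in growing cells. Their messages belong to the TOP class: transcription starts at a cytosine within a short run of pyrimidines, and this tract lets growth factors and the kinase mTOR switch translation of the message on and off through Larp1 and related proteins. Serum, the stimulus applied here, is a standard way to activate that pathway in fibroblasts, and it also raises transcription of ribosomal RNA and of the factors that assemble ribosomes.

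Total RNA from 10 cultures of mouse cells was measured on oligonucleotide arrays, in a series on Med23, a subunit of the Mediator complex that connects transcription factors with RNA polymerase II. Of these, 6 arrays were of embryonic fibroblasts (MEFs) from embryos of day 9.5 that had immortalised spontaneously: cells of wild type (WT) or with a knockout (KO) of Med23, taken without serum (0 min) or 30 or 90 min after serum was given. The remaining 4 arrays were of 10T1/2 cells, a line derived from mouse embryos: an untreated control, MAL overexpression, Med23 knockdown (also labelled MED23 deficiency), and both treatments together. MAL is an actin-regulated coactivator of the serum response factor SRF. Each condition had 1 array, the labels name no further line of either genotype, and precision is limited by the small number of arrays. Nothing says that the RNAs came from separately grown replicate cultures, so p-values measure only the spread over these arrays, which may be technical.

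Expression is given as log2 signal, on which a difference of 1 is a 2-fold change. A signal compares arrays within a probe set and says nothing of the level of a gene against another gene. Med23 (probe set 1452064_at) read 6.90 to 7.39 in WT and 2.91 to 3.30 in KO MEFs, and 5.45 and 5.67 in 10T1/2 cells without the knockdown against 4.24 and 3.94 with it. Of 17 fibroblast markers, 14 lay above the array median on each MEF array and 15 or 16 in 10T1/2 cells. Vim, the intermediate filament of mesenchymal cells, read 13.50 to 13.99, whereas Thy1, Lum and Fap lay below the array median on every MEF array. Dcn, a fibroblast matrix proteoglycan, read 13.60 to 13.71 in WT and 4.26 to 4.73 in KO MEFs. Col1a2 went the other way, with 9.13 to 9.76 in WT and 13.31 to 13.40 in KO MEFs. Of 14 fibroblast markers tested for KO against WT as described below, 2 rose and 7 fell (21.2% and 20.8% of all tested genes). The defining macrophage markers Ptprc and Adgre1 read at most 3.20 and 3.71 on any array, and Cd14 was at 8.13 to 9.28 in WT and 6.13 to 6.25 in KO cells. Among 6 epithelial markers 2 lay above the median on every array, and of 5 skeletal muscle markers 1 or 2. Of 8 macrophage markers, 4 lay above the median on WT and 3 on KO arrays, and of 5 neural markers likewise 4 and 3, with Sox2 at 7.61 to 9.11 in WT and 2.61 to 2.99 in KO cells. Among 6 endothelial markers, 1 lay above the median on WT and 1 or 2 on KO arrays, where Emcn read 4.95 to 5.38. The part of these differences in the results below was not tested. In bulk RNA, fewer cells of a type and less RNA per cell cannot be told apart.

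The start tract that gives TOP messages their name can be read in the RefSeq promoter windows (assembly GRCm38.p6, 250 bases before to 50 after each annotated start), which matched 37 of the 42 genes with 43 starts. A cytosine at the annotated start followed by 4 further pyrimidines was found at 8 of the 43 starts (18.6%), against 823 of 32851 starts of all genes (2.51%) and 0 of 75 starts of mitochondrial ribosomal protein genes. The 8 windows are shown because they hold this tract, and they belong both to genes that differed between KO and WT MEFs and to genes that did not pass the test. Each runs from 40 bases before the start through the first 10 transcribed bases, 5′ to 3′ on the gene's strand. Capitals mark the pyrimidine tract from the annotated start and, where present in the window, the motif CCGGAAG.
Rpl14 (chr9:120571477-120571526, plus strand): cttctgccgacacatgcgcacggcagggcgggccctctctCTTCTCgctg
Rps6 (chr4:86857358-86857407, minus strand): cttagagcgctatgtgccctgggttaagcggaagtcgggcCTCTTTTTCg
Rps18 (chr17:33955656-33955705, minus strand): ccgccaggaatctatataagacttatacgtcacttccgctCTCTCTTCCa
Rpl35 (chr2:39005122-39005171, minus strand): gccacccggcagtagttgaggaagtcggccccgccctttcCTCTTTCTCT
Rps10 (chr17:27635235-27635284, minus strand): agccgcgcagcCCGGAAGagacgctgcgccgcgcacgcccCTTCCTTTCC
Rpl38 (chr11:114668540-114668589, plus strand): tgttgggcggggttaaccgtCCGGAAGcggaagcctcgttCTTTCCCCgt
Rps27 (chr3:90213639-90213688, minus strand): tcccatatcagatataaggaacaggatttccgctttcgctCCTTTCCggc
Rplp2 (chr7:141447611-141447660, plus strand): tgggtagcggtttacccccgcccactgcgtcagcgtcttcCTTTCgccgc

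The tracts ran from 5 bases in Rplp2 to at least 10 in Rps10 and Rpl35, where they reached the end of the window shown. An annotated start that is off by a few bases hides such a tract, so its absence elsewhere says only that these letters are not at that position. The letters CCGGAAG on either strand, which ETS factors such as GABP can bind, were in 18 of the 43 windows (41.9%) against 8.86% of all starts and 34.7% of mitochondrial ribosomal protein starts. GGGCGG, a GC box of the kind Sp1 can bind, was in 23 (53.5%) against 35.66% of all and 52.0% of the mitochondrial ones. CACGTG, the E-box of Myc and Max, was in 5 (11.6%) against 7.15%, and TATAAA in 5 (11.6%) against 13.62%. The CArG box of SRF was in 1 window, that of Rpl10a (2.3%), against 1.63% of all starts. All of these motifs were searched on both strands, and they may overlap each other. The windows were not selected by these motifs, and a match is a description of the letters only.

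Ribosomal protein genes were among the brightest on the arrays. Of the 42, 33 had a mean signal of 12 or more over the 10 arrays, in a range of log2 signal from 1.85 to 14.70, and the 9 dimmer probe sets were those of Rpl12, Rpl14, Rpl27a, Rpl37, Rpl39, Rps16, Rps25, Rps27 and Rps6. The probe set of Rps16 read 2.82 to 3.12 on all arrays and did not pass the filter on low values. The other 41 genes were tested, and no other gene was left out.

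Taken over the 42 genes, the WT MEF arrays of 0, 30 and 90 min had a median signal of 12.92, 12.60 and 12.42, and the KO arrays 13.57, 13.48 and 13.45. The 10T1/2 arrays had medians of 13.29 (control), 13.36 (MAL), 13.45 (knockdown) and 13.39 (both treatments). The 3 WT MEF arrays were thus the lowest of the 10. Measured from each gene's own mean over the 10 arrays, the median deviation was -0.22, -0.35 and -0.50 on the WT arrays, 0.17 to 0.27 on the KO arrays and 0.08 to 0.16 in 10T1/2 cells.

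**Figure D1:**
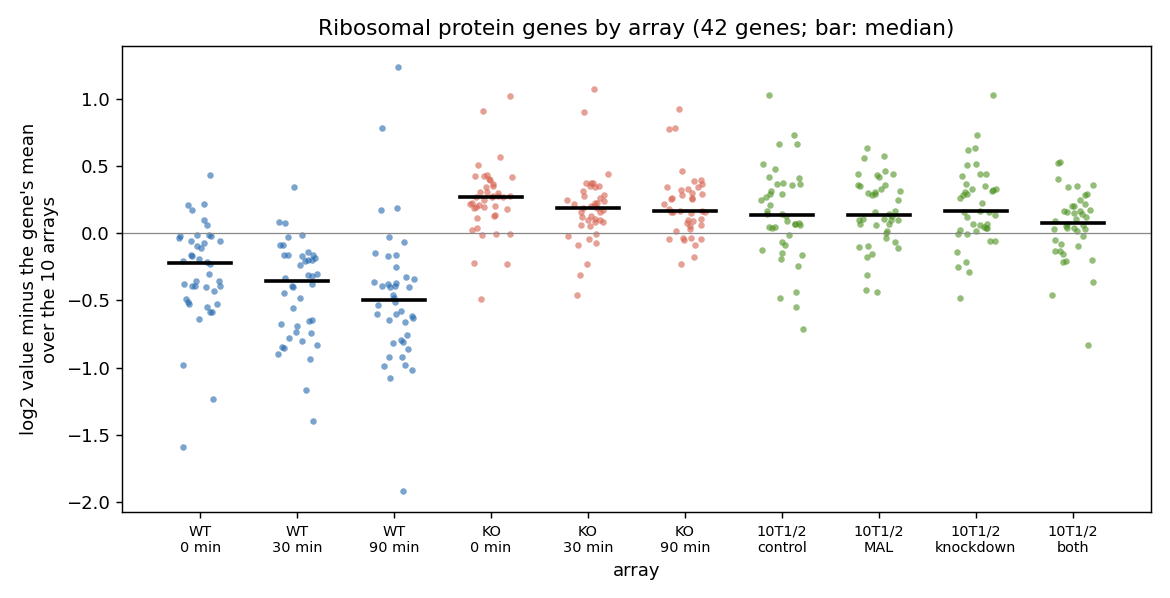
Each point is a ribosomal protein gene on 1 of the 10 arrays (x axis), as its log2 signal minus that gene's mean over the arrays (y axis), and bars are medians over the 42 genes. The medians of the WT MEF arrays lie at -0.22, -0.35 and -0.50, and those of the other 7 arrays lie above 0.

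The comparison of KO with WT MEFs asked how these genes stood in cells without Med23. Most ribosomal protein genes were higher in KO cells: 26 of the 41 tested rose, none fell, and 15 did not pass the test (limma, Benjamini-Hochberg adjusted p under 0.05 over 11933 genes). Of all tested genes 21.2% rose and 20.8% fell. The coefficient, which is the KO minus WT difference in log2 signal averaged over the serum times, had a median of 0.59 against -0.02 for all tested genes and ran from -0.19 to 2.50, with a median SE of 0.13. It was positive for 39 of the 41. Both subunits moved, with 12 of 22 large subunit genes higher (median 0.56) and 14 of 19 small subunit genes higher (median 0.69). For 34 of the 41, all KO arrays lay above all WT arrays, which held for 20.5% of all tested genes. On the probe set used, Rps28 alone lay below on all KO arrays, which held for 20.7%.

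Rpl14, a large subunit protein, differed most. The gene had a single probe set, among the dimmer ones listed above, with a mean signal of 7.69. It read 6.10, 6.29 and 5.77 in WT cells at 0, 30 and 90 min and 8.60, 8.59 and 8.47 in KO cells. The groups were far apart at every serum time, with a coefficient of 2.50 (SE 0.14, 5.66-fold, n = 3 pairs, adjusted p = 6.21e-05). Rps6, the protein that S6 kinase phosphorylates after growth stimulation, read 8.59, 8.50 and 8.20 in WT and 10.20, 10.25 and 10.10 in KO cells. It rose by 1.75 (SE 0.13, 3.37-fold, adjusted p = 0.000196). Both genes carry the pyrimidine tracts shown above, CTTCTC in Rpl14 and CTCTTTTTC in Rps6.

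Rps18, at the head of the small subunit, stood at 12.70, 12.51 and 12.32 in WT and 13.77, 13.69 and 13.71 in KO cells, a rise of 1.21 (SE 0.13, 2.32-fold, adjusted p = 0.000879). Rps25, which several viral internal ribosome entry sites depend on, read 8.15, 8.19 and 8.53 in WT and 9.40, 9.50 and 9.39 in KO cells (1.14, SE 0.14, adjusted p = 0.00165). Rps19, the gene most often mutated in Diamond-Blackfan anaemia, read 12.16, 11.94 and 11.67 in WT and 13.05, 12.95 and 12.81 in KO cells (1.01, SE 0.13, adjusted p = 0.00157). In these 3 small subunit genes the lowest KO value exceeded the highest WT value. Rps24 and Rps26, which are also Diamond-Blackfan anaemia genes, rose by 0.97 (SE 0.13) and 0.99 (SE 0.13), from means of 12.63 ± 0.21 and 12.27 ± 0.19 to 13.61 ± 0.06 and 13.26 ± 0.05 (SD over the serum times, n = 3 arrays). Rps15, a head protein of the small subunit, rose from 12.55 ± 0.21 to 13.55 ± 0.06 (2.00-fold).

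On the large subunit, Rpl37 read 9.57, 8.76 and 9.35 in WT and 10.50, 10.03 and 10.19 in KO cells (1.01, SE 0.14, adjusted p = 0.00239). Rpl35, which sits beside the exit of the peptide tunnel, rose from 12.49 ± 0.26 to 13.45 ± 0.11 (0.96, SE 0.14). Rpl11 forms with Rpl5 and 5S RNA the particle that binds Mdm2 when ribosome assembly is disturbed. It read 11.93 to 12.22 in WT and 12.85 to 12.99 in KO cells, without overlap (0.87, SE 0.12, adjusted p = 0.00252). Rpl22, which also binds other RNAs and matters for T cell development, rose by 0.68 (SE 0.17, adjusted p = 0.0199). The scaffold protein Rplp0 of the stalk, where translation factors dock, gave 0.28 (adjusted p = 0.112), and its partner Rplp2 gave 0.22 (adjusted p = 0.249), so neither stalk gene measured passed the test.

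Among other small subunit genes with known further roles, Rpsa, also described as the laminin receptor precursor, rose by 0.69 (SE 0.16, adjusted p = 0.0181) and the X-linked Rps4x by 0.45 (SE 0.13, adjusted p = 0.0384). Rps14, the gene tied to the anaemia of the 5q- syndrome, did not pass the test: it read 13.80, 13.70 and 13.56 in WT and 13.84, 13.71 and 13.70 in KO cells (0.06, adjusted p = 0.710). Rps28 read 13.90, 13.77 and 13.88 in WT and 13.71, 13.67 and 13.60 in KO cells. Its KO values were the lower at each serum time, and the coefficient of -0.19 did not pass the test (SE 0.12, adjusted p = 0.263).

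The other genes among the 8 lowest coefficients were on the large subunit. Rpl12, at the base of the stalk, gave -0.15 (SE 0.29) and Rpl27a 0.19 (SE 0.28), and both varied widely between arrays. Rpl19 gave 0.04 (adjusted p = 0.834), Rpl38, which favours translation of Hox messages, 0.15 (adjusted p = 0.360), and Rpl39, in the wall of the exit tunnel, 0.14 (adjusted p = 0.395). The signal of Rpl19 spanned 13.46 to 13.59 in WT and 13.52 to 13.60 in KO cells, so its groups overlapped. Just past the threshold was Rps10 (0.41, adjusted p = 0.0417), and just short of it Rpl37a (0.39, adjusted p = 0.0509).

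**Figure D2:**
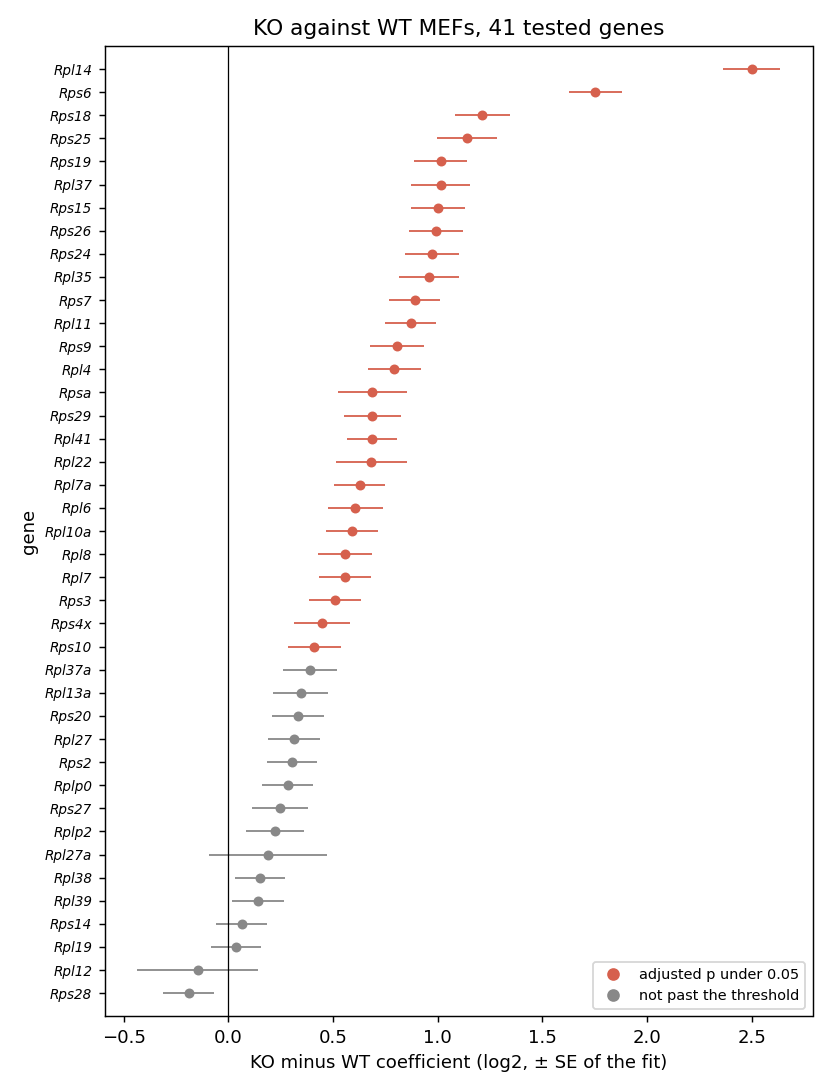
The x axis gives the KO minus WT coefficient of each of the 41 tested ribosomal protein genes (y axis) in log2 units, with bars for the SE of the limma fit and red for an adjusted p under 0.05. Points run from -0.19 in Rps28 to 2.50 in Rpl14, and 39 of 41 lie above 0.

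Genes with and without the start tract overlapped in their KO coefficients. The 8 genes with it had a median of 0.69 (0.15 to 2.50), and 28 tested genes without it a median of 0.62 (-0.19 to 1.14). Of the 8 sequences shown, those of Rpl14, Rps6, Rps18, Rpl35 and Rps10 belong to genes that rose, and those of Rpl38, Rps27 and Rplp2 to genes that did not pass the test. Genes with CCGGAAG had a median of 0.69 and those without it 0.55 (18 each).

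The difference was present at each serum time. Over the 41 genes the median KO minus WT difference at 0, 30 and 90 min of serum came to 0.48, 0.54 and 0.65, with 39, 38 and 38 genes higher in KO, against 46.9%, 47.2% and 49.9% of all tested genes. Each of these is a single pair of arrays, and a change of the difference with serum was not tested. Values also spread less over the serum times in KO cells: the SD over the 3 arrays was larger in WT than in KO cells for 41 of 41 genes, compared with 58.2% of all tested genes, with a median SD of 0.16 in WT and 0.06 in KO cells.

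Further probe sets of these genes mostly read higher in KO cells too. The 42 genes had 94 probe sets, and the KO mean was above the WT mean in 88 of them, including 68 of the 70 with a mean signal of 8 or more. The size of the difference varied with brightness, without a steady order. Below a mean signal of 8 the median difference was 0.21 over 24 probe sets, and from 8 to 12 it was 0.84 over 13. Between 12 and 13 the median difference was 1.0 over 16 probe sets, between 13 and 13.5 it was 0.71 over 25, and at 13.5 or more it was 0.29 over 16. In 16 genes with several probe sets at 8 or more, the dimmest gave the larger difference in 11 (median 0.92 for the dimmest and 0.62 for the brightest). Rpl13a, for which the brightest probe set (1455485_x_at) gave 0.35 and did not pass the test, gave 1.16 on its dimmest (1433928_a_at). Rps29 gave 1.37 on the dimmest and 0.69 on the brightest. In Rpl37a the order was the other way, with 0.25 and 0.39. The part of brightness in the sizes of these differences was not tested.

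**Figure D3:**
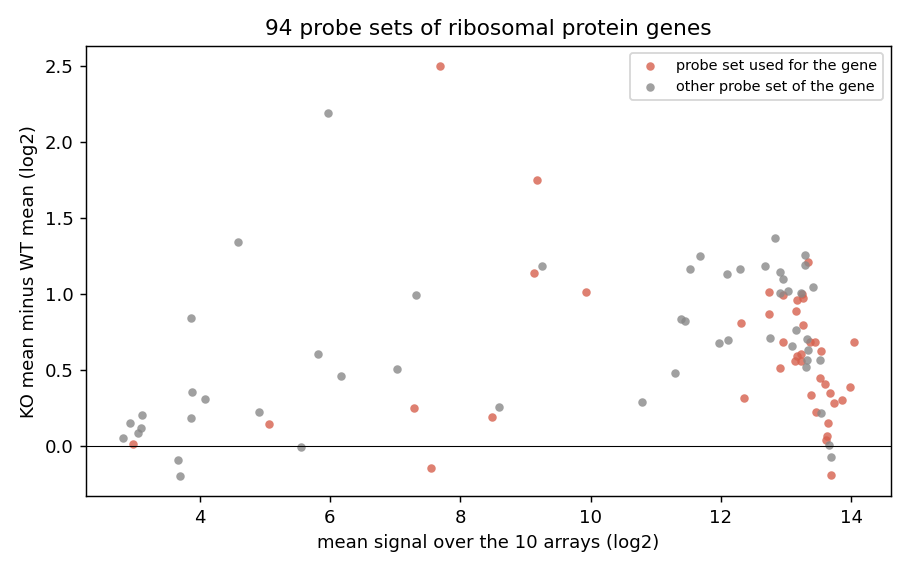
Each of the 94 probe sets of ribosomal protein genes is placed by its mean log2 signal over the 10 arrays (x axis) and its KO minus WT mean difference in log2 units (y axis), with red for the probe set used for the gene. The median difference is 0.21 below a signal of 8, 0.84 from 8 to 12, 1.0 between 12 and 13, 0.71 between 13 and 13.5, and 0.29 at 13.5 or more.

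Of the 26 calls, 14 held when each serum time was left out in turn. Without the 0, 30 and 90 min arrays 15, 14 and 24 genes rose, as did 11.8%, 11.1% and 20.4% of all tested genes. The median stayed between 0.51 and 0.61. The scale mattered for the count: 14 genes rose and 1 fell, with a median of 0.29, when arrays were centred on the poly-A control transcripts added during labelling, a scale on which the median of all genes shifted to -0.34, 11.6% of all tested genes rose and 38.6% fell, and 23.1% of all calls were higher instead of 50.5%. These controls had medians of 5.87, 6.21 and 5.69 in WT and 5.99, 6.58 and 6.10 in KO cells. With quantile normalization the median was 0.38 and 20 genes rose, as did 21.3% of all tested genes. Using only probe sets without an _x, _s or _a suffix, which mark probe sets that can bind several transcripts, left 21 genes, of which 9 rose (median 0.36). Of all tested genes 20.1% rose there. Under that choice Rps18, Rps9, Rpl35, Rpl41 and Rps10 lost their call, on dim probe sets with mean signals of 4.08, 5.55, 3.88, 6.17 and 4.91, against 12.30 to 14.04 for those used otherwise. Rps24 and Rps3 kept their call there on dim probe sets too, with mean signals of 5.967 and 7.325. On its dim probe set Rps24 gave 2.19, against 0.97 on the probe set used otherwise. Rpl11, Rpl14, Rpl37, Rpl4, Rps15, Rps19, Rps24, Rps25, Rps26, Rps6 and Rps7 were called higher in every alternative in which they had a value. Ribosomal protein genes have many pseudogenes of near-identical sequence, so which copy a probe set measures can be uncertain.

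Other genes of translation were read from lists, beside the 21.2% of all tested genes that rose and 20.8% that fell. Of the translation factors and other TOP messages, 13 of 21 tested rose in KO cells and none fell, with a median of 0.51. Nap1l1, a histone chaperone, rose by 1.58 and Eef1b2, the exchange factor of elongation factor 1, by 1.21, whereas Tpt1 (-0.15) and Eif3k (0.05) did not pass the test. Ribosomal protein genes outside the symbol rule included Fau, the precursor of Rps30, which rose by 0.41, the paralogues Rpl22l1 (1.07) and Rps27l (0.43), which rose, and Rps3a1 (0.22) and Rpl7l1 (-0.02), which did not pass. The list held 12 genes, of which 8 were measured and 5 tested, and Fau is also on the list of TOP messages. The genes of the mitochondrial ribosome went both ways, at shares near those of all genes: of 76 tested, 14 rose and 18 fell, with a median of -0.05. Mrpl19 rose by 1.33 and Mrpl52 by 1.25, and Mrpl38 fell by 1.17 and Mrps18a by 1.05.

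Of 35 tested genes for factors that assemble ribosomes, 8 rose, near the share of all genes, and 1 fell, with a median of 0.21. Nop58 rose by 1.47 and nucleolin (Ncl) by 0.84, while Bop1 and Eif6 gave -0.62 each and did not pass. The single gene that fell was Heatr1 (-0.54), named after its value was seen. Of 11 RNA polymerase I genes, 3 rose and 2 fell (median 0.05), also near those shares, with Taf1b at 1.54 and Taf1d at 1.34 among those that rose and Ubtf at -0.64 and Taf1c at -0.60 as those that fell. Of 18 mTOR and S6 kinase pathway genes, 2 rose, Eef2k (0.83) and Larp1 (0.44), the repressor of TOP messages, and 7 fell, with Mtor at -1.14 and Rptor at -0.80 (list median -0.22). Of 10 transcription factors named for ribosomal protein promoters, none rose and 3 fell (median -0.18). Gabpb1, a subunit of GABP, fell by 0.68 and Mycn by 0.60, and Myc (0.52, adjusted p = 0.259) and E2f1 (0.24) did not pass.

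**Figure D4:**
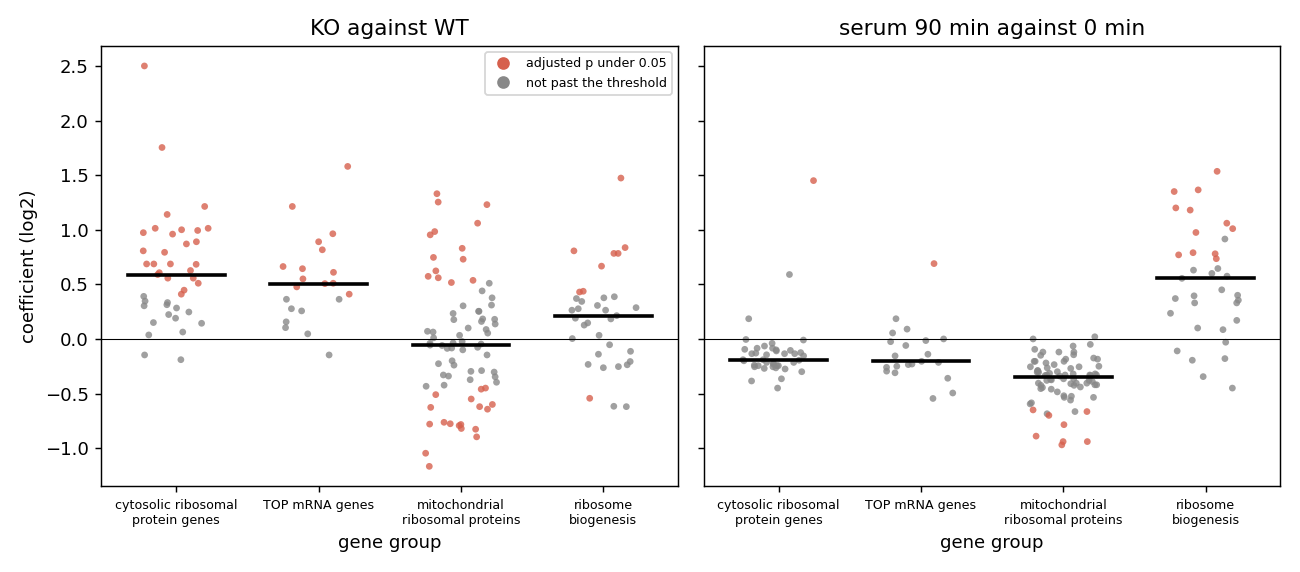
The y axis gives log2 coefficients of single genes for KO against WT (left) and 90 min against 0 min of serum (right), by gene group (x axis), with red for an adjusted p under 0.05 and bars for group medians. Left, the medians are 0.59 for cytosolic ribosomal proteins, 0.51 for TOP messages, -0.05 for mitochondrial ribosomal proteins and 0.21 for biogenesis factors; right, they are -0.19, -0.21, -0.35 and 0.56.

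Serum gave few calls among ribosomal protein genes. At 30 min none of the 41 genes passed the test in limma (1 at an unadjusted p under 0.05), where 0.235% of all tested genes rose and 0.0168% fell. The coefficient was negative for 37 of the 41, with a median of -0.10 against 0.02 for all genes. Rpl37 (-0.64), Rpl27a (-0.63), Rps29 (-0.27) and Rpl35 (-0.23) had the lowest coefficients, and Rpl12 (0.81), Rpl14 (0.09), Rps25 (0.07) and Rps3 (0.02) the highest. Centred on the poly-A controls, 6 genes fell at 30 min, near the 14.2% of all tested genes that fell on that scale.

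At 90 min a single gene passed the test, Rpl12, where 4.56% of all tested genes rose and 8.95% fell. Its probe set read 6.32, 7.90 and 8.34 in WT and 7.07, 7.10 and 7.95 in KO cells at 0, 30 and 90 min. The 90 min value was the highest in both genotypes, and the coefficient was 1.45 (SE 0.35, adjusted p = 0.0470). The gene has a single probe set, and in 4 alternatives the coefficient stayed at 1.45 while the call was lost, with an adjusted p of 0.0968 without the 30 min arrays, 0.0622 with no filter on low values, 0.0581 when the probe sets of each gene were averaged and 0.0534 without suffixed probe sets. The coefficient was negative for 38 of the 41 genes, with a median of -0.19 against -0.11 for all genes.

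Rpsa had the lowest coefficient at 90 min (-0.45, SE 0.20, adjusted p = 0.187), followed by Rpl22 (-0.39), Rps19 (-0.37) and Rpl35 (-0.30). The highest after Rpl12 were Rpl27a (0.59), Rps25 (0.19) and Rpl7a (-0.01). Rpl27a showed no common course: it read 8.93, 7.76 and 9.73 in WT and 8.90, 8.81 and 9.28 in KO cells. Rps6, whose protein is phosphorylated in this response, gave -0.25 (adjusted p = 0.335).

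Within each genotype the values moved slightly downward, with 1 array at each time and no test. From 0 to 90 min the median change was -0.25 in WT cells, with 38 of 41 genes lower, and -0.06 in KO cells, with 34 of 41 lower. Of all tested genes 60.3% were lower in WT and 58.6% in KO cells. In WT cells Rpsa went from 13.15 to 13.05 and 12.38 and Rpl22 from 12.76 to 12.58 and 12.03. In KO cells the same genes read 13.59, 13.59 and 13.46, and 13.16, 13.14 and 13.12. The steps of these genes were thus larger on the WT arrays, and that difference was not tested.

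Over the same 90 min several ribosome assembly factors rose. Of the 35 tested, 12 rose and none fell, where 4.56% of all tested genes rose and 8.95% fell, with a median of 0.56, and Nop58 reached 0.92 without passing the test (adjusted p = 0.0513). Myc, a known activator of such genes, rose by 1.95 and Gabpb1 by 1.14. Among mitochondrial ribosomal protein genes none rose and 8 of 76 fell, near the share of all genes (median -0.35). Of the 21 translation factors and other TOP messages 1 rose, and the median was -0.21. The gene that rose was the initiation factor gene Eif3a (0.69), named after its value was seen. Of the 18 mTOR and S6 kinase pathway genes 2 rose and 1 fell, with a median of -0.01. The gene that fell was Mtor, by 0.74 (adjusted p = 0.0469).

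In 10T1/2 cells the comparison asked what MAL and the loss of Med23 go with in these genes. Neither treatment gave a call among the 41. For MAL, 0 genes passed in limma and 2 had an unadjusted p under 0.05, and of all 12440 tested genes 0.0482% rose and 0.0161% fell. The median coefficient was -0.03, the same as for all genes. On the control, MAL, knockdown and combined arrays Rpl14 read 8.72, 8.15, 8.72 and 7.49. Rpl12 read 8.22 in the control and 7.56 with MAL alone, and 7.10 with both treatments. Both were lower on each array with MAL than on its partner without it, with coefficients of -0.90 (SE 0.24, adjusted p = 0.106) and -0.78 (SE 0.19, adjusted p = 0.0969) that did not pass. Rps9 (-0.26) and Rps27 (-0.25) followed, and the highest were Rpl4 (0.28), Rpl7 (0.16), Rpl37 (0.11) and Rps26 (0.10).

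For the knockdown, 0 of the 41 genes passed in limma and 0 had an unadjusted p under 0.05. Of all tested genes 0% were called, and Med23 itself was not called either, so this fit says little about single genes. The median coefficient was -0.06 against -0.08 for all genes. Rpl4, which lines the exit tunnel, read 12.82, 13.33, 13.42 and 13.46 on the control, MAL, knockdown and combined arrays. Rpl7 read 12.75, 12.79, 12.98 and 13.25 in the same order. For both genes the control was the lowest array, with coefficients of 0.37 (SE 0.21) and 0.35 (SE 0.19). Rps6 gave 0.34 (SE 0.25), with values from 8.63 in the control to 9.34 with the knockdown alone, and Rps24 gave 0.23. The lowest coefficients were -0.34 for Rpl12, -0.33 for Rpl14, -0.31 for Rps27 and -0.12 for Rpl8.

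Single pairs of arrays gave medians near 0 as well. Adding MAL changed the median gene by 0.01 in control cells and by -0.07 in knockdown cells, and the knockdown changed it by -0.01 without and -0.07 with MAL. Both treatments together lay below the sum of the single changes in 32 of the 41 genes, compared with 58.4% of all tested genes, by a median of -0.07 (all genes -0.09). The spread over the 4 arrays was small for most of the genes, with a median SD of 0.08. Centred on the poly-A controls, whose median signal was 8.26, 7.61, 7.68 and 6.97 in the order above, 34 genes were called higher with MAL and 10 with the knockdown, where 54.3% and 32.4% of all tested genes were. On that scale the median of all genes shifted to 0.67 for MAL and 0.55 for the knockdown, against 0.65 and 0.56 for the ribosomal protein genes.

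The effects of the KO in MEFs and of the knockdown in 10T1/2 cells were set against each other in a fit over all 10 arrays, which uses the same KO and WT arrays as above. The difference, KO effect minus knockdown effect, was positive for 40 of the 41 genes, with a median of 0.59 against 0.02 for all genes. It passed the test for 17 of the 41, all higher, while 13.7% of all tested genes were called higher and 15.6% lower. Rpl14 had the largest difference (2.83, SE 0.26, adjusted p = 0.000319), followed by Rps6 (1.41, SE 0.27, adjusted p = 0.00679), Rps18 (1.27, SE 0.21) and Rps25 (1.17, SE 0.32). At the other end were Rps28 (-0.25), Rps14 (0.14), Rpl19 (0.15) and Rpl38 (0.17). Line, culture and the means of removing Med23 differ together here and cannot be told apart. Without the 30 min MEF arrays 6 of the 41 genes passed and without the 0 min arrays 10, both chosen after seeing the data. In these settings 10.0% and 9.31% of all tested genes were called higher. Centred on the poly-A controls the direction turned, with 1 gene higher, 9 lower and a median of -0.33. Of all tested genes 3.31% were then higher and 68.1% lower, with a median of -0.88.

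The same fit set 10T1/2 cells against WT MEFs, each averaged over their arrays whatever the treatment or serum time, and shares its WT arrays with the KO comparison. Of the 41 genes, 27 were higher in 10T1/2 cells and 2 lower, where 42.6% of all tested genes were higher and 28.3% lower. The median coefficient was 0.50, against 0.18 for all genes. Rpl14 was again the highest (2.22, SE 0.16), with Rps19 at 1.29, Rps25 at 1.24 and Rpl27 at 1.18. Rpl27 read 11.71 to 11.87 in WT MEFs, 12.05 to 12.14 in KO MEFs and 12.89 to 13.02 in 10T1/2 cells, so all 3 groups were apart.

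Rpl27a and Rpl39 were the genes called lower in 10T1/2 cells. Rpl39 read 5.03 to 5.28 in WT MEFs and 4.70 to 4.87 in 10T1/2 cells (-0.41, SE 0.12, adjusted p = 0.0149). The call of Rpl39 was lost with arrays centred on their medians (-0.17) and with quantile normalization (-0.16). It was also lost without the 0 min arrays (-0.36), a setting chosen after seeing the data. Rpl27a read 7.76 to 9.73 in WT MEFs and 7.66 to 8.07 in 10T1/2 cells (-0.93, SE 0.26, adjusted p = 0.0118), and its groups overlapped. The call of Rpl27a was lost without the 90 min arrays (-0.465), likewise chosen after seeing the data. Rps28 (-0.26) and Rpl7 (-0.20) did not pass. All 10T1/2 arrays lay above all WT MEF arrays for 30 of the 41 genes (33.6% of all tested genes) and below for Rpl39, Rps14 and Rps28 (20.4%). Another bright probe set of Rps14 (1436586_x_at) went the other way, with 13.12 to 13.44 in WT MEFs and 13.56 to 13.82 in 10T1/2 cells. Among the paralogues, Rps27l stood out with 10.08 to 10.18 in WT MEFs and 12.07 to 12.41 in 10T1/2 cells.

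The direction of this comparison depended on the scale. Centred on the poly-A controls, which read higher in 10T1/2 cells, 1 of the 41 genes was higher and 40 were lower, with a median of -1.20 against -1.69 for all genes, of which 4.73% were higher and 87.6% lower. Centred on array medians, 34 were higher and 1 lower, and 71.5% of all calls were higher, against 60.0% as deposited. Whether 1 normalization covered the MEF and 10T1/2 arrays is not given in the sources, and the array medians were 3.86 to 3.93 and 3.64 to 3.70.

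**Figure D5:**
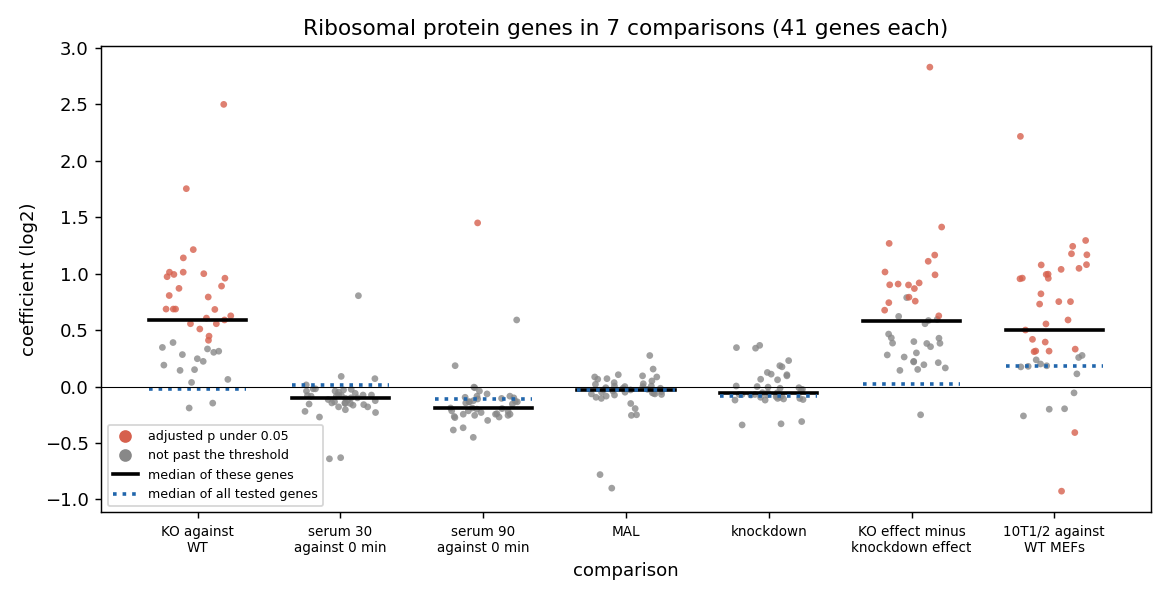
The y axis gives the log2 coefficients of the 41 tested ribosomal protein genes in each of 7 comparisons (x axis), with red for an adjusted p under 0.05, solid bars for their median and dotted bars for the median of all tested genes. The medians are 0.59 for KO against WT, -0.10 and -0.19 for serum, -0.03 for MAL, -0.06 for the knockdown, 0.59 for the KO minus knockdown effect and 0.50 for 10T1/2 cells against WT MEFs.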

How the data were processed

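The log2 values deposited by the authors, 1 per probe set and array, were used as given; RMA and MAS5 are named per the submitters' processing notes, without roles or versions. The 64 array controls, 932 probe sets of several symbols and 9160 unnamed ones of 45101 were left out of the tests. Symbols came from the platform annotation, updated by Entrez identifier (34741 of 34945). A gene was represented by its probe set with the highest mean and entered a fit when its highest value exceeded the median of all probe sets there (3.90 in MEFs, 3.67 in 10T1/2 cells, 3.81 over all arrays), leaving 11933, 12440 and 13034 genes. Additive models were fitted with limma 3.58.1 in R 4.3.3: genotype and serum time (2 residual degrees of freedom), MAL and knockdown (1), and all factors with line (3). Tests were two-sided, Benjamini-Hochberg adjusted over all tested genes, with a threshold of 0.05, and were checked on simulated data. Each simulation changed 100 genes by 1 and 100 by 2 in log2. Changes of 1 were recovered in 95% for KO against WT, 87% for the knockdown and 50% for the line term over all arrays. False calls numbered 19, 53 and 9. The simulated noise was independent between genes and arrays, which real noise may not be. Named genes were the 10 highest and 8 lowest coefficients for KO against WT, the 4 highest and 4 lowest elsewhere, genes of known role, and the 2 highest and 2 lowest of each other list in KO against WT; other genes illustrate values. The genes, lists and rules were chosen with earlier results of these data known. Alternatives covered normalization, filter, probe set, variance model and arrays used.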

Additional observations from a re-analysis of the deposited data

Results flagged for a closer look

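For 17 of the 41 tested ribosomal protein genes the effect of the KO in MEFs differed from that of the knockdown in 10T1/2 cells by the test of the difference itself (limma over all 10 arrays, adjusted p under 0.05), each with the higher value for the KO. On the large subunit these were Rpl14 with a difference of 2.83 (log2), Rpl35 with 1.02, Rpl11 with 0.99, Rpl37 with 0.91, Rpl41 with 0.76, Rpl8 with 0.68 and Rpl7a with 0.63. On the small subunit they were Rps6 with 1.41, Rps18 with 1.27, Rps25 with 1.17, Rps15 with 1.11, Rps19 with 0.92, Rps9 with 0.90, Rps7 with 0.90, Rps26 with 0.87, Rpsa with 0.79 and Rps24 with 0.74. Of all tested genes 13.7% were called higher and 15.6% lower. Centred on the poly-A controls, 1 of the 41 was higher and 9 were lower, where 3.31% and 68.1% of all tested genes were. Med23 read below the array median in KO cells and 4.24 and 3.94, above it, with the knockdown.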

How the results depend on the processing

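Each count of called genes is out of 41, of 42 with no filter, or of 21 without probe sets of an _x, _s or _a suffix. The cause of each shift was not tested. With poly-A centring, counts became 14 higher and 1 lower for KO against WT, 6 lower for 30 min of serum, 34 higher for MAL, 10 higher for the knockdown, 1 higher and 9 lower for the KO minus knockdown effect, and 1 higher and 40 lower for 10T1/2 cells against WT MEFs. That centring turned the median KO minus knockdown effect to -0.33 and that of Rpsa to -0.12, and the median of 10T1/2 cells against WT MEFs to -1.20, with Rps19 at -0.41, Rps25 at -0.46, Rpl27 at -0.53, Rps6 at -1.15, Rplp2 at -1.20, Rpl11 at -0.62, Rpl22 at -0.97, Rpl38 at -1.39, Rpsa at -0.95 and Rps18 at -0.54. Without suffixed probe sets, 9 genes were higher in KO, 6 for the KO minus knockdown effect, and 10 higher and 4 lower in 10T1/2 cells, where Rps18 turned to -0.26. Of all tested genes 20.1%, 12.2% and 39.5% were higher in that order, and 30.4% were lower in 10T1/2 cells. A variance trend gave 27 higher for the KO minus knockdown effect and 5 lower in 10T1/2 cells, against 14.1% and 28.7% of all tested genes. Centring on array medians gave 1 lower in 10T1/2 cells, against 21.1% of all tested genes. Quantile normalization gave 2 lower with MAL, against 7.3% of all tested genes. At 90 min of serum, 0 genes passed with no filter, with the mean of probe sets, or without the 30 min arrays. Without the 0 min arrays 15 genes passed for KO against WT, 10 for the KO minus knockdown effect and 1 lower in 10T1/2 cells. Without the 30 min arrays 14 and 6 passed for the former pair, and without the 90 min arrays 1 was lower in 10T1/2 cells. Of all tested genes 25.4% and 27.7% were lower in 10T1/2 cells without the 0 and 90 min arrays. Leaving out arrays in the last 2 comparisons was chosen after seeing the data. The other counts stayed within 1.5 times the reported value. The fit of KO against WT paired the arrays by serum time, and 22 genes rose without that term, as did 12.1% of all tested genes.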
